A study of Mus musculus with 8 samples.

Results

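White adipocyte markers are genes whose transcripts are known to be more abundant in white than in brown fat cells, and 10 of them were followed here in brown adipose tissue (BAT): Sncg, Npr3, Trpc6, Slc7a10, Tcf21, Hoxc8, Hoxc9, Agt, Alcam and Lpgat1. They are 10 of the 31053 genes in the count table, and all 10 were found there by their Ensembl identifiers. The genes were listed with the difference between obese and lean BAT in these same libraries in view, separating genes that were turned up from those that were not. Their levels and fold changes are therefore given as a description, and no p-value is attached to them.

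BAT was taken from 8-week-old wild-type (WT) mice of the C57BL6/J strain and from db/db mice labelled with the same strain and age, with 4 libraries for each genotype. The db/db mice carry a mutation of the leptin receptor gene Lepr in every cell of the body and become obese and diabetic. An effect of the mutation itself cannot be told apart from one of the obesity. The methods of the study state that the mice were male and fasted before tissue collection, that WT mice came from Charles River and that the db/db line, B6.BKS(D)-Leprdb/J, came from Jackson laboratories. The list of resources of the study instead names Jackson for WT mice too, and the db/db stock given there is catalogued on the C57BLKS/J background. Whether supplier or background differed between the groups is thus not settled, and where they did, they cannot be told apart from genotype. The labels give the cell type as stromal vascular fraction, the part of fat that remains after the floating adipocytes are removed. Transcripts of mature adipocytes were nevertheless abundant, with Adipoq between 1245 and 1828 CPM and Ucp1 at 2248 ± 387 CPM in WT (SD, n = 4), so the libraries are treated as whole BAT. CPM is the count scaled to a common library size, by the effective library total.

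Brown and white adipocytes share the machinery that stores triglyceride, but brown adipocytes burn fuel to make heat through mitochondria that hold uncoupling protein 1, while white adipocytes hold a single large droplet and secrete hormones such as leptin. Markers of white fat are of several kinds. Some, such as Sncg, Npr3, Slc7a10 and Agt, are products of the mature adipocyte, whereas Tcf21 and the Hox genes are transcription factors that record where in the body a precursor arose. Obese BAT fills with large lipid droplets and comes to look like white fat under the microscope, a change called whitening.

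The WT libraries held 2374079 to 2615009 counts and the db/db libraries 2382722 to 3240074. At these depths 3 counts, taken as the smallest detectable level, stood for 0.902 to 1.33 CPM. Of the 10 genes, 7 passed the filter on low counts and entered the edgeR fit across 9264 genes, and 3 of them were called higher in db/db and 0 lower. Over all 9264 genes, 27.7% were called, 15.8% as higher and 11.9% as lower in db/db. Since the 10 genes were listed from this same contrast, nothing is read from their count. The same 3 genes, Sncg, Npr3 and Lpgat1, had values that did not overlap between the genotypes, and over all tested genes 15.3% were higher and 12.7% lower without overlap. The median log2 fold change over the 7 genes that could be fitted was 1.27, beside 0.01 over all genes tested. Nothing is read from that median either, for the same reason. Bulk RNA cannot tell a change in the number of cells of a type from a change in RNA per cell.

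**Figure D1:**
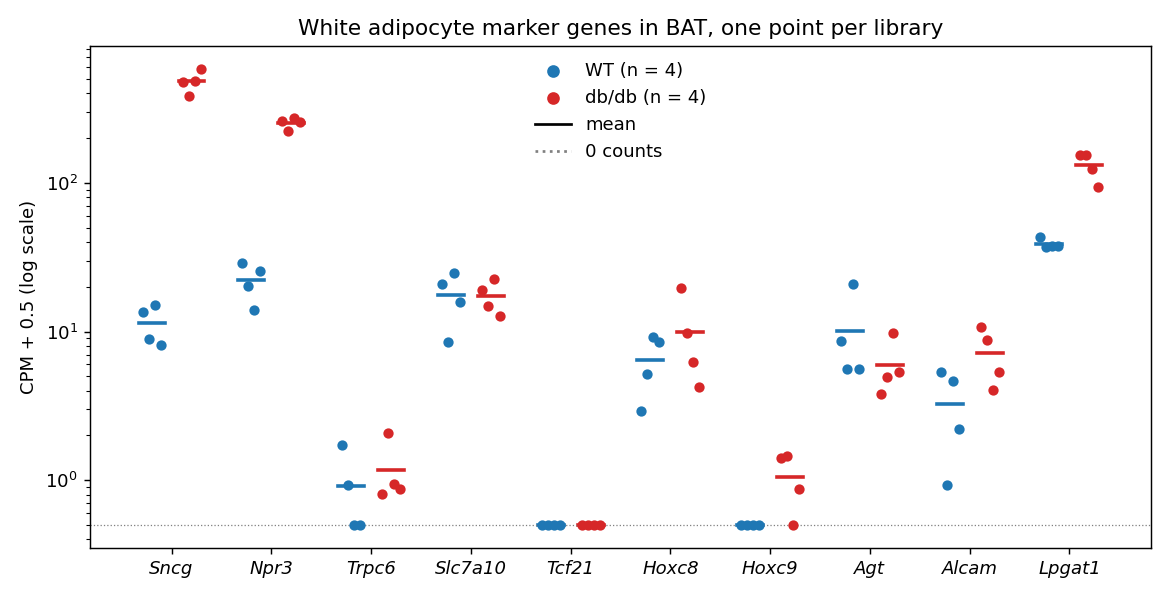
Level of each white adipocyte marker in each library, as CPM + 0.5 on a log scale, with WT in blue, db/db in red, bars at the mean and the dotted line at 0 counts. Sncg, Npr3 and Lpgat1 are separated between the genotypes, Slc7a10 lies at the same height in both, and Tcf21 sits at 0 counts in all 8 libraries.

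Among the 10 genes, Sncg had the largest difference. Sncg (ENSMUSG00000023064, chromosome 14, 34370274 to 34374789, minus strand, mm10) encodes gamma-synuclein, a small protein of the synuclein family found in peripheral neurons and in white fat. Its level in the WT libraries was 12.9, 8.44, 14.7 and 7.64 CPM, and in the db/db libraries 479.5, 383, 487 and 586 CPM. The lowest db/db library thus stood far above the highest WT library. Sncg was not silent in WT, where the libraries held from 18 to 39 counts, against 1099 to 1594 in db/db. Its mean was 10.9 ± 3.41 CPM in WT and 484 ± 82.7 CPM in db/db (SD, n = 4 each), a fold of 43.8 (95% interval 32.1 to 59.7), or 5.45 on the log2 scale (SE 0.21). Only 12 of the 9264 genes tested had a larger log2 fold change. Sncb, which encodes beta-synuclein, held 0 counts in every library.

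The stretch before the start of Sncg is shown because this gene moved furthest of the 10. Of the 250 bases that RefSeq (GRCm38.p6) places before the transcript start, the 130 that lie outside the GENCODE gene, at chr14:34374790-34374919 on the minus strand, read 5′ to 3′ as follows, with no match in capitals because none of the motifs searched occurs in them.
Sncg: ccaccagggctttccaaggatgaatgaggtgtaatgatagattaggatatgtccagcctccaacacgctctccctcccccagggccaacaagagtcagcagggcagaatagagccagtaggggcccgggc
Sncg lies head to head with Mmrn2, a gene of endothelial cells whose annotated start is 676 bases away. Mmrn2 stood at 20.2 CPM in WT and 22.5 CPM in db/db on average, and did not pass the test (log2 fold change 0.16 ± 0.20 SE, adjusted p of 0.591 by edgeR). The nearest tested gene on the other side, Glud1, had a log2 fold change of −0.10 (SE 0.15, adjusted p of 0.670 by edgeR). Neither neighbour was separated between the genotypes.

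Npr3 (ENSMUSG00000022206, chromosome 15, 11839896 to 11907287, minus strand) encodes the natriuretic peptide clearance receptor, which binds the heart hormones ANP and BNP and removes them without raising cGMP. Its level in the WT libraries was 28.3, 19.8, 13.5 and 25.0 CPM, and in the db/db libraries 262, 225, 272 and 258 CPM. Every db/db library lay above every WT library, and the db/db values were close to each other, with a coefficient of variation of 8.07%. The mean was 21.7 ± 6.46 CPM in WT and 254 ± 20.5 CPM in db/db (SD, n = 4 each), a fold of 11.7 (95% interval 8.91 to 15.4), or 3.55 on the log2 scale (SE 0.19).

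The 250 bases before the start of Npr3, and those before Slc7a10 for contrast, are shown because both genes mark mature white adipocytes and only Npr3 passed the threshold. They lie at chr15:11907372-11907621 on the minus strand and chr7:35186135-35186384 on the plus strand, from RefSeq with build GRCm38.p6, and capitals mark matches to the motifs searched.
Npr3: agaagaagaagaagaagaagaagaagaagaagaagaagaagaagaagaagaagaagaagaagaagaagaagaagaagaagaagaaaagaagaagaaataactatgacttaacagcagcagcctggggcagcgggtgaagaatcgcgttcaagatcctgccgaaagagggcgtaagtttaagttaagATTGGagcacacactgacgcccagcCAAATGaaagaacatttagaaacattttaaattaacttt
Slc7a10: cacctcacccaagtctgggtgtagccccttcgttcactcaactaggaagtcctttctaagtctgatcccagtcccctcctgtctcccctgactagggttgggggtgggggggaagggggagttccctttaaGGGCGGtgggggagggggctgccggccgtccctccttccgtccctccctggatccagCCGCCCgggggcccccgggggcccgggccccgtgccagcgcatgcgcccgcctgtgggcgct
The Npr3 stretch opens with 28 copies of the unit AGA, 84 bases in all, and its GC content is 38.8%, against 69.6% for Slc7a10, 61.6% for the full window of Sncg, 75.2% for that of Lpgat1 (the more upstream of its 2 starts) and a median of 52.4% over all 32851 windows of this length. The motifs were searched on both strands and do not overlap each other in these stretches. The CCAAT box (CCAAT) and the E-box (CANNTG) each occur once in Npr3, with an E-box also in the full window of Sncg, and are present in 33.8% and 66.2% of all windows. The GC box (GGGCGG) occurs in Slc7a10, Sncg and Lpgat1 and in 32.7% of all windows. The TATA box (TATAAA), the C/EBP site (TTGCNNAA) and the nuclear receptor core site (AGGTCA), present in 12.4%, 9.6% and 14.0% of all windows, did not occur in these 4 genes. The promoter table matched 8 of the 10 genes. Hoxc8 and Hoxc9 were not matched.

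A noncoding transcript near Npr3 also moved. 1700047G03Rik (ENSMUSG00000099349, chromosome 15, 11964276 to 11970086, plus strand) is the nearest tested gene on the upstream side of Npr3, 57.0 kb away, and was singled out after its values were seen. It held 0, 0, 1 and 0 counts in the WT libraries and 46, 30, 15 and 31 in the db/db libraries (edgeR adjusted p 3.16e-06). The genotypes did not overlap in these counts. The nearest tested gene on the downstream side, Tars, lies 440 kb away and had a log2 fold change of −0.24 (SE 0.24, adjusted p of 0.490 by edgeR). The exons of Npr3 overlap those of Gm5144, a noncoding gene on the opposite strand, and strand-aware counting is not stated, so reads of the pair cannot be told apart.

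Of 11 other genes of the natriuretic peptide pathway, 3 could be tested and 0 passed with edgeR at the adjusted threshold. Before adjustment 2 were under 0.05, Npr1 and Npr2, and DESeq2 called 1, Npr1. Npr1, the receptor that makes cGMP and drives lipolysis, held 13.4, 13.5, 6.39 and 2.97 CPM in WT and 19.0, 18.8, 16.0 and 14.1 CPM in db/db (log2 fold change 0.91 ± 0.34 SE, adjusted p of 0.0561 by edgeR). Npr2, the receptor for the C-type peptide, had a log2 fold change of 0.51 (SE 0.20, adjusted p of 0.0596 by edgeR). For both receptors every db/db library was above every WT library. Mme, which encodes the peptidase neprilysin, was lower in every db/db library than in any WT library but did not pass either (log2 fold change −0.21 ± 0.12 SE, adjusted p of 0.236 by edgeR). The hormone genes Nppa, Nppb and Nppc held 0 counts in every library. For every 100 Npr3 counts a WT library held between 11.9 and 68.1 Npr1 counts, and a db/db library between 5.48 and 8.36. The ratio of signalling to clearance receptor counts was thus lower in every db/db library than in any WT library. This ratio includes Npr3 and is given as a description. Npr1 and Npr2 each share exons with an antisense gene, and their counts are uncertain.

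Lpgat1 (ENSMUSG00000026623, chromosome 1, 191717834 to 191784255, plus strand) encodes an acyltransferase of the endoplasmic reticulum that adds fatty acids to lysophospholipids. Its level in the WT libraries was 42.9, 36.3, 37.2 and 37.4 CPM, and in the db/db libraries 155, 153, 123 and 92.6 CPM. The WT values formed a tight group, and the db/db values were all higher but spread over 1.67-fold. The mean was 38.4 ± 3.01 CPM in WT and 131 ± 29.4 CPM in db/db (SD, n = 4 each), a fold of 3.41 (95% interval 2.66 to 4.37), or 1.77 on the log2 scale (SE 0.17). In 13 other acyltransferases of lysophospholipids, 9 could be tested, 0 were higher and 1 was lower in db/db, and 4 were under 0.05 before adjustment. The gene called was Agpat2, an enzyme of triglyceride and phospholipid synthesis (log2 fold change −0.92 ± 0.23 SE, adjusted p of 0.00604 by edgeR), whose exons overlap those of Egfl7 and whose counts are uncertain for that reason. Agpat4 and Agpat5, enzymes of the same family, were higher in every db/db library than in any WT library but did not pass (log2 fold changes 1.06 ± 0.40 and 0.53 ± 0.21 SE, adjusted p of 0.0569 and 0.0720 by edgeR), and Mboat7 did not pass either (log2 fold change −0.57 ± 0.22 SE, adjusted p of 0.0564 by edgeR). The nearest tested genes beside Lpgat1, Ints7 and Slc30a1, did not pass (log2 fold changes 0.57 ± 0.28 and −0.54 ± 0.24 SE, adjusted p of 0.149 and 0.111 by edgeR), although Slc30a1 was lower in every db/db library than in any WT library.

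These 3 genes were also set against Adipoq, the adiponectin gene that brown and white adipocytes both express. For every 100 Adipoq counts, Sncg held 0.488 to 0.866 counts in WT and 20.7 to 34.8 in db/db. Npr3 held 0.740 to 1.89 counts in WT and 12.2 to 15.3 in db/db, and Lpgat1 2.03 to 2.91 in WT and 5.50 to 8.30 in db/db. Each of the 3 ratios was higher in every db/db library than in any WT library. The 3 genes were listed from this contrast, so the ratios are given as a description. Adipoq itself was at 1534 CPM in WT and 1909 CPM in db/db on average and did not pass (log2 fold change 0.32 ± 0.14 SE, adjusted p of 0.112 by edgeR).

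Slc7a10, by contrast, had nearly equal means in both genotypes. It encodes ASC-1, a carrier of small neutral amino acids on the surface of white adipocytes (ENSMUSG00000030495, chromosome 7, 35186385 to 35201114, plus strand). Its level in the WT libraries was 20.2, 8.02, 24.4 and 15.3 CPM, and in the db/db libraries 18.7, 14.3, 22.2 and 12.3 CPM. The ranges overlapped, and the means were 17.0 ± 7.05 and 16.9 ± 4.43 CPM (SD, n = 4 each). The log2 fold change was −0.03 (SE 0.29), with a 95% interval from −0.64 to 0.59. On the linear scale that interval is 0.640 to 1.51. The exons of Slc7a10 overlap those of Lrp3 on the opposite strand, which held 15 to 29 counts per library, so the Slc7a10 counts are uncertain for the same reason as those of Npr3. Of 9 genes of neutral amino acid transport and of serine racemase, 4 could be tested and 1 was higher, the glutamine carrier gene Slc1a5 (log2 fold change 0.48 ± 0.14 SE, adjusted p of 0.0139 by edgeR). Slc7a6, another amino acid carrier, was lower in every db/db library than in any WT library but did not pass (log2 fold change −0.62 ± 0.23 SE, adjusted p of 0.0527 by edgeR). Slc3a2, the heavy chain that partners carriers of this family, had a log2 fold change of −0.04 (SE 0.18, adjusted p of 0.903 by edgeR).

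Agt (ENSMUSG00000031980, chromosome 8, 124556534 to 124569706, minus strand) encodes angiotensinogen, the precursor of the peptide hormone angiotensin. Its level was 8.09, 5.06, 20.3 and 5.09 CPM in WT and 3.31, 4.45, 9.31 and 4.84 CPM in db/db. The genotypes overlapped, and WT replicate 3 was the highest library. The log2 fold change was −0.86 (SE 0.46, 95% interval −1.83 to 0.10), and −0.21 without WT replicate 3. Of 11 other genes of the renin-angiotensin system, 4 could be tested and 1 was higher in db/db. That was Anpep, an aminopeptidase that trims angiotensin peptides and is also found on myeloid cells and fibroblasts (log2 fold change 2.12 ± 0.38 SE, adjusted p of 0.000385 by edgeR). The renin gene Ren1 and the receptor genes Agtr1b, Agtr2 and Mas1 held 0 counts in every library. The receptor gene Agtr1a held 4 to 14 counts in WT and 9 to 16 in db/db, and did not pass the count filter.

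Alcam and Trpc6 encode proteins of the cell surface. Alcam (ENSMUSG00000022636, chromosome 16, 52248996 to 52454074), an adhesion molecule also present on leukocytes and endothelium, held 4.86, 0.422, 4.13 and 1.70 CPM in WT and 10.2, 8.27, 3.55 and 4.84 CPM in db/db. The values overlapped, and the log2 fold change was 1.27 (SE 0.51, 95% interval 0.19 to 2.35), which did not pass after adjustment over all genes. These levels rest on 1 to 12 counts in WT and 8 to 34 in db/db. Trpc6 (ENSMUSG00000031997, chromosome 9, 8544142 to 8680741), a cation channel opened by diacylglycerol, held 3, 1, 0 and 0 counts in WT and 1, 5, 1 and 1 in db/db. It did not pass the count filter, and no fold is given. The 6 other channels of the family had at most 7 counts in any library and were not tested either.

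**Figure D2:**
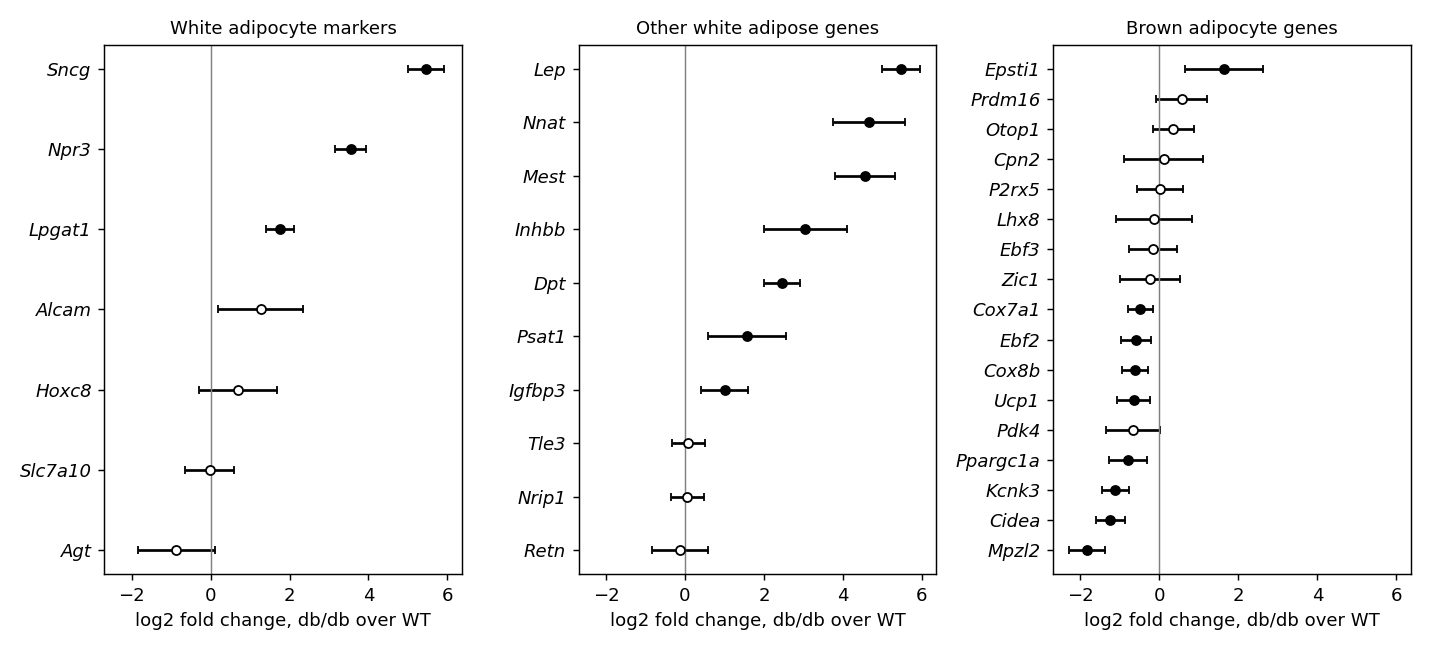
Log2 fold change of db/db over WT for the genes that passed the count filter, with 95% intervals. Filled points are genes called at the adjusted threshold. Sncg, Npr3 and Lpgat1 lie to the right of 0 and clear of it, Slc7a10 lies on 0, and among the brown adipocyte genes 8 filled points lie to the left and 1, Epsti1, to the right.

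The genes that record the origin of white fat precursors were at or near 0 in both genotypes, apart from Hoxc8. Tcf21 (ENSMUSG00000045680, chromosome 10, 22817281 to 22820174), a bHLH factor of white preadipocytes, held 0 counts in all 8 libraries, which allows a level of up to 1.33 CPM in the shallowest. The 4 bHLH genes on the list, its partners and a close relative, were all tested, and 0 were called by edgeR or by DESeq2 and 0 were under 0.05 before adjustment. The most abundant of them, Tcf4, had a log2 fold change of −0.01 (SE 0.14, adjusted p of 0.982 by edgeR). Hoxc9 (ENSMUSG00000036139, chromosome 15, 102976439 to 102985099) held 0 counts in every WT library and 3, 3, 0 and 1 counts in the db/db libraries. Every library was at or under 3 counts, so no fold is given.

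Hoxc8 (ENSMUSG00000001657, chromosome 15, 102990607 to 102994111) was detected in every library, at 2.43, 4.64, 8.64 and 8.06 CPM in WT and 19.3, 9.23, 5.76 and 3.72 CPM in db/db. The genotypes overlapped, and db/db replicate 1 stood highest. The log2 fold change was 0.70 (SE 0.47, 95% interval −0.29 to 1.69), and 0.08 without db/db replicate 1. That library also had the highest sum of skeletal muscle markers, 12511 CPM against 2481 to 5598 CPM in the other db/db libraries, and the part of this in the Hoxc8 value was not tested.

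Hox genes lie in 4 clusters, and along each cluster genes of higher number are used further towards the tail of the body. Hoxc8 and Hoxc9 are neighbours in the HoxC cluster and fell on opposite sides of a drop in counts seen over the 4 clusters together in both genotypes. The 23 Hox genes numbered 1 to 8 held 1715 counts in WT and 2159 in db/db, and 19 of them had at least 1 count. The 4 genes numbered 9 held 30 counts in WT and 35 in db/db. The 12 genes numbered 10 to 13 held 0 counts in WT and 1 in db/db, a single count of Hoxd10. Among the number 9 genes, Hoxa9 held 5, 5, 4 and 1 counts in WT and 2, 0, 1 and 0 in db/db, in the opposite order to Hoxc9, and neither passed the count filter. Among the other genes of the HoxC cluster, Hoxc4, Hoxc5 and Hoxc6 could be tested, and 0 were called by edgeR or DESeq2 and 1, Hoxc4, was under 0.05 before adjustment, with log2 fold changes of 0.80, 0.13 and −0.15 (SE 0.33, 0.29 and 0.25, edgeR adjusted p 0.0823, 0.784 and 0.709). In the other clusters 8 of 30 Hox genes could be tested and 0 were called by edgeR or DESeq2. The 1 gene under 0.05 before adjustment was Hoxa4 (log2 fold change 0.80 ± 0.34 SE, adjusted p of 0.0925 by edgeR). Annotated transcripts of Hoxc5 span Hoxc6, Hoxc8 and Hoxc9 on the same strand but share no exon with them. Other Hox genes do share exons on the same strand, such as Hoxc5 with Hoxc10 and Hoxd3 with Hoxd4. Hoxd10 and Hoxd11 share exons with a noncoding gene. The counts of these genes, among them zeros in the groups above, are uncertain for that reason.

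**Figure D3:**
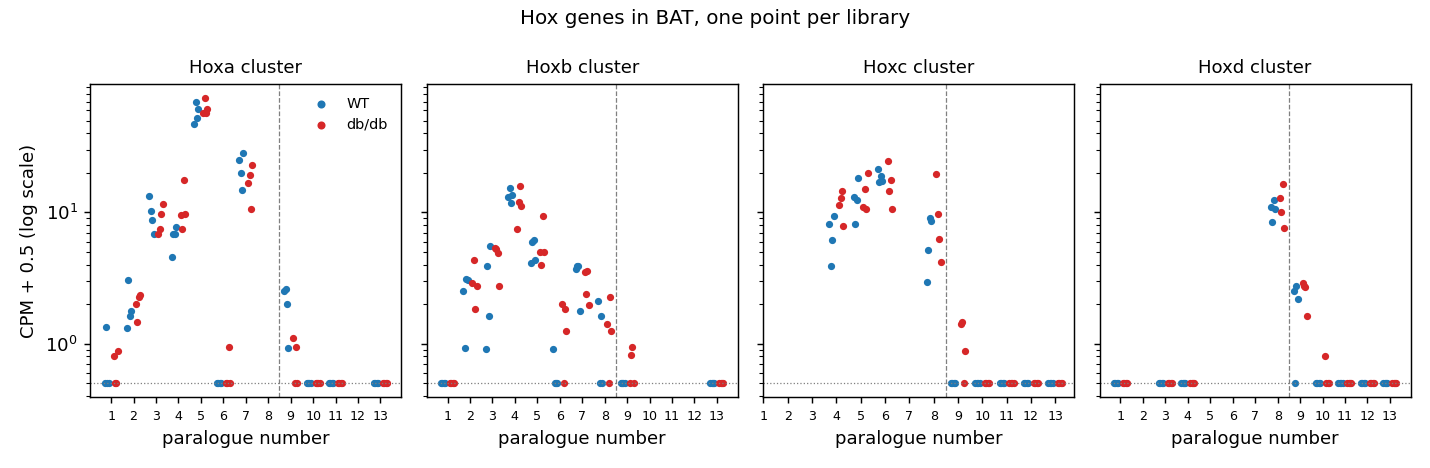
Level of each Hox gene in each library as CPM + 0.5 on a log scale, by cluster and paralogue number, with WT in blue, db/db in red, the dotted line at 0 counts and the dashed line between numbers 8 and 9. No gene to the right of the dashed line exceeds 8 counts in a library of either genotype, and Hoxc8 is the last gene of the HoxC cluster before that drop.

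Other genes known from white adipose tissue were read from a list that is not independent of earlier results of these data. Of 11 genes, 10 could be tested, 7 were higher and 0 lower in db/db, and 5 were without overlap between the genotypes. The list's median log2 fold change was 2.02. Lep, the leptin gene, rose by 5.47 on the log2 scale (SE 0.23, adjusted p of 2.44e-11 by edgeR), and Nnat, a small proteolipid of the endoplasmic reticulum, by 4.66 (SE 0.43, adjusted p of 4.57e-07 by edgeR). Mest, an imprinted gene tied to fat cell enlargement, rose from 2.08 ± 1.39 to 50.8 ± 17.0 CPM (SD, n = 4 each; edgeR adjusted p 1.00e-07). Inhbb, which encodes the activin B subunit, rose by 3.05 on the log2 scale (SE 0.50, adjusted p of 0.000175 by edgeR). Mest shares exons with Copg2 on the opposite strand and Nnat with a small RNA gene, so both counts are uncertain. Dpt, Igfbp3 and Psat1 also passed, the last 2 with overlap. The genes that did not pass were Retn, the resistin gene, and the transcriptional corepressors Nrip1 and Tle3, with log2 fold changes of −0.13, 0.06 and 0.09 (SE 0.34, 0.20 and 0.20). Requiring at least 10 counts in every library left 4 of the list past the threshold in place of 7.

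Of 20 genes of brown adipocytes, 17 could be tested, 8 were lower and 1 was higher in db/db. The 4 largest falls were in Mpzl2, Cidea, Kcnk3 and Ppargc1a, at −1.82, −1.24, −1.12 and −0.79 on the log2 scale (edgeR adjusted p from 8.21e-06 to 0.0158). Mpzl2 and Kcnk3 each share exons with a gene on the opposite strand, so their counts are uncertain. The gene that was higher was Epsti1, which is also induced by interferon (log2 fold change 1.64 ± 0.47 SE, adjusted p of 0.0142 by edgeR). Zic1 and Lhx8, transcription factors that mark the origin of classical BAT, did not pass (log2 fold changes −0.23 ± 0.36 and −0.14 ± 0.45 SE, adjusted p of 0.674 and 0.854 by edgeR). Of 5 genes of beige adipocytes none passed the count filter. The most abundant, Shox2, held 6 to 9 counts in WT and 2 to 44 in db/db, and Tmem26 held at most 1 count per library. The distances of Sncg and Npr3 from WT, at 5.45 and 3.55, were larger in size than that of any tested gene on the brown adipocyte list. Sncg and Npr3 were listed from this contrast, so this order is a description and nothing is read from it.

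The genes whose profile over the 8 libraries was most like Sncg, by the smallest root mean square difference of centred log2(CPM + 0.5), were Dusp9, Lep and Prr32, at 0.428, 0.443 and 0.470. Dusp9 and Prr32 held 0 counts in every WT library and 26 to 62 and 31 to 63 counts in db/db, so their place in this order depends on the 0.5 CPM added. The profile most like Npr3 was that of Fhl1, followed by Tuba1a and Nek6, at 0.365, 0.375 and 0.388. Fhl1, a LIM-domain gene also expressed in muscle, stood at 23.3 ± 6.11 CPM in WT and 285 ± 77.0 CPM in db/db (SD, n = 4 each), and Tuba1a at 21.8 ± 4.54 and 259 ± 80.3 CPM. These genes were picked by that likeness, so their differences are a description.

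Markers of other cells also differed between the genotypes. The 18 skeletal muscle markers summed to 469 to 1671 CPM in WT and 2481 to 12511 CPM in db/db, and 17 of them were higher in db/db. The 11 macrophage markers summed to 159 to 219 CPM in WT and 743 to 1309 CPM in db/db, with 9 of 10 tested higher. The 9 fibroblast and progenitor markers summed to 573 to 671 CPM in WT and 1024 to 2118 CPM in db/db, with 8 of 9 higher. The sums of 10 genes common to brown and white adipocytes overlapped, at 14714 to 22934 CPM in WT and 18995 to 24182 CPM in db/db. Of these genes 2 were higher in db/db, Plin1 and Fabp4, and 2 were lower, Dgat2 and Lpl. The 9 endothelial markers summed to 449 to 504 CPM in WT and 333 to 380 CPM in db/db, with 3 of 9 lower.

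For Sncg, which neurons also express, markers of nerve were examined. The 9 genes of neurons and Schwann cells summed to 120 to 205 CPM in WT and 364 to 573 CPM in db/db, with 2 of 4 tested higher. The sum was mostly S100b, which was higher in db/db, at 126 ± 27.7 CPM in WT and 385 ± 119 CPM in db/db (SD, n = 4 each), which adipocytes express as well. The neuronal genes Th and Tubb3 held 0 counts in every library, and Snap25 held 2 counts in 1 db/db library and 0 in the others. The 6 smooth muscle and pericyte genes summed to 186 to 225 CPM in WT and 314 to 419 CPM in db/db, with 3 of 4 tested higher. Mesothelial genes, which mark visceral white fat, were near 0, with Upk3b, Upk1b and Wt1 at 0 counts in every library, and the sum was at most 8.44 CPM. The 1 tested gene of that list, Lrrn4, was lower in db/db. The 5 lymphocyte genes summed to at most 12.3 CPM. Apart from these measurements, the part of other cell types in Sncg, Npr3 and Lpgat1 was not tested.

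The highest db/db library was 1.53-fold above the lowest for Sncg, 1.21-fold for Npr3 and 1.67-fold for Lpgat1. The same span was 5.04-fold for the muscle sum, 1.76-fold for the macrophage sum and 2.07-fold for the progenitor sum, each highest in db/db replicate 1. It was 1.33-fold for the smooth muscle and pericyte sum, also highest in replicate 1, and 1.58-fold for the neuron and Schwann cell sum, which like Sncg was highest in db/db replicate 4. The part of these cells in the Sncg value was not tested. Over all fits that left out a single library, the log2 fold change of Sncg ran from 5.31 to 5.61, that of Npr3 from 3.36 to 3.69 and that of Lpgat1 from 1.67 to 1.90.

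**Figure D4:**
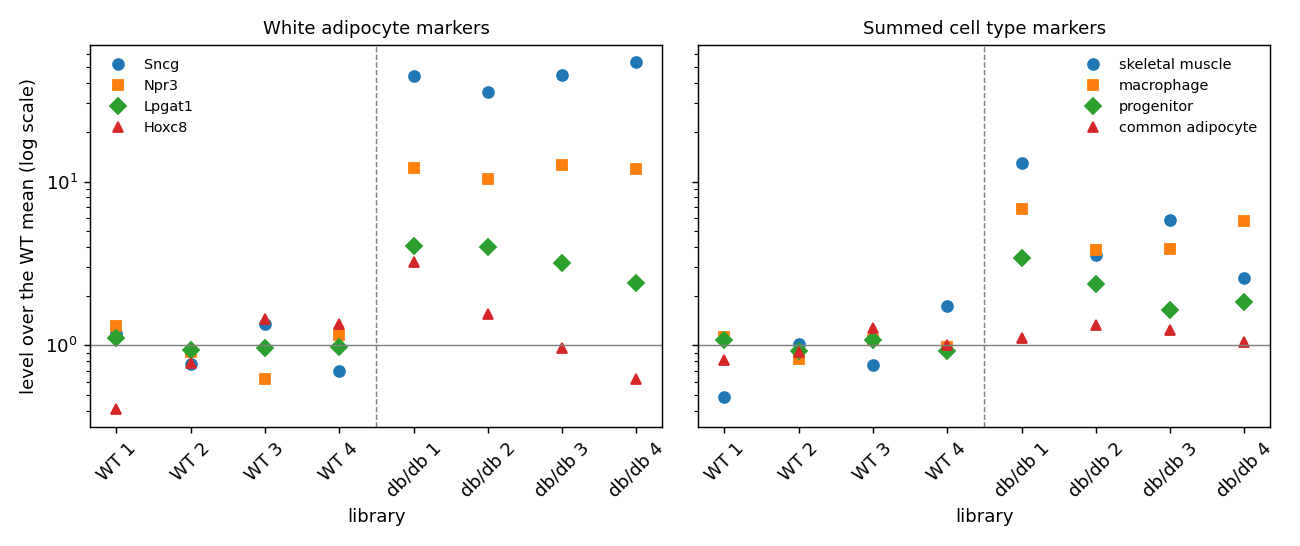
Level in each library over the WT mean, on a log scale, for 4 white adipocyte markers (left) and for the summed markers of 4 cell types (right). Among the 4 db/db libraries Sncg spans 1.53-fold and Npr3 1.21-fold, and the skeletal muscle sum spans 5.04-fold. Hoxc8 and the muscle sum are both highest in db/db replicate 1.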

How the data were processed

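Bulk mRNA-seq of BAT was analysed from the raw counts that the authors deposited, 1 column per library, as whole-number counts per Ensembl gene on mm10. The methods of the study name bbduk, STAR and HTSeq-count, whereas the submitters' processing notes name Trimmomatic, HISAT2 and DESeq2. Use of strand and of molecular identifiers is not given in the sources used here, so PCR copies may be counted. The authors' normalized log2 values and the sample sheet were not used. Symbols and positions came from GENCODE M21 (30934 of 31053 genes matched).

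Genes were filtered by filterByExpr (minimum count 10, minimum total 15), scaled by TMM and fitted by genotype alone in edgeR 4.0.16 (R 4.3.3), using glmQLFit and glmQLFTest. P-values were adjusted by Benjamini-Hochberg over all 9264 genes, and genes under 0.05 were called higher or lower. CPM were scaled by the filtered total times the TMM factor. Standard errors were derived from the F statistic and 95% intervals from its degrees of freedom. Intervals and the floor of 3 counts cover counting or replicate error only.

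The 10 genes and all lists were chosen with earlier results of these data known. All 10 genes are named with their values, and from each list at most 4 passing genes a direction by size of change, or at most 2 by level where none passed. The 3 genes most like Sncg and Npr3 are named as well. Other genes, neighbours on the chromosome and motifs were chosen after values were seen. Alternatives were DESeq2 1.42.0, 3 scalings, 2 filters, the replicate block and each library left out. The study describes the replicates of each group as separate mice, which the labels do not state. Some listed genes are not reported here.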

Additional observations from a re-analysis of the deposited data

Results flagged for a closer look

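Of 64 groups of 4 libraries examined by Dixon's criterion at the 95% level, 4 held a library far from the other 3, where chance gives about 3.2. Lpgat1 in WT replicate 1 was at 42.9 CPM, against 36.3 to 37.4 CPM in the other WT libraries, and still below every db/db library. Trpc6 in db/db replicate 2 was at 1.59 CPM, against 0.301 to 0.443 CPM, which rests on 5 counts against 1 in each of the others. Retn in db/db replicate 1 was at 162 CPM, against 81.6 to 90.8 CPM in the other db/db libraries. The 5 lymphocyte genes in db/db replicate 1 summed to 12.3 CPM, against at most 0.887 CPM in the other db/db libraries.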

How the results depend on the processing

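The 10 markers were chosen from this contrast, so their calls in refits of the same libraries are a description and no sign of stability. Of 47 comparisons of single markers under the alternatives, 46 kept their side of the threshold, and Alcam passed when every gene with at least 1 count was tested (log2 fold change 1.22). All 56 with 1 library left out kept theirs. In the other white adipose genes, 4 passed in place of 7 with at least 10 counts in every library, a filter that by its construction left fewer genes to test, and 6 or 7 passed without 1 library. Over the other lists of brown, beige, Hox, pathway and family genes, 12 genes passed, and from 7 to 14 without 1 library. The lowest count, 7, came without WT replicate 4, and the cause was not tested. The number of all genes differing ran from 2018 to 3170 around 2568 under the alternatives and from 2236 to 2483 without 1 library.

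With the replicate block, 2557 genes differed and 3 markers passed. The deviations of same-numbered libraries from their genotype means correlated at −0.08 to 0.05. Libraries of a shared number differ in genotype and so in animal. Whether a number also stands for a shared batch is not given in the labels, and these correlations cannot settle it. The block changed no call among the 10 markers. Depth limits Trpc6, Tcf21 and Hoxc9, which held at most 5 counts per library.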
